A study of Homo sapiens with 6 samples.

Results

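The data described here are the 3 vehicle libraries of an RNA-seq experiment of 6 libraries on MCF-12A, a non-tumorigenic human breast epithelial cell line that the study describes as estrogen receptor negative. All 6 libraries came from cells grown in supplemented mammary epithelial medium. The 3 vehicle libraries were made from cells that received phosphate-buffered saline (PBS) for 24 h, and the other 3 libraries, from cells given octanoic acid (OA) for 24 h, were not analysed here. The members were chosen by the treatment named in the sample labels. Since the cells received PBS and growth supplements they were vehicle-treated rather than untreated, and the values below describe 1 line in 1 medium at 1 time.

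Reads per gene were divided by gene length and scaled to a total of 1000000 in each library. The result (TPM, transcripts per 1000000) allows levels of different genes to be compared within a library. The 3 libraries held 59935521, 50081258 and 43049972 counts over 14803 genes. Values are given for vehicle libraries 1, 2 and 3 in that order, or as mean ± SD (n = 3). With 1 group there was no contrast to test (the smallest two-sided p of an exact sign test on 3 libraries is 0.25), so an order of genes is given as a description, and a pair of genes is said to overlap where the lowest library of the higher gene was not above the highest library of the lower gene. The labels do not state whether each library had a culture of its own, so the SD may be technical. Pairs of libraries differed by more than counting noise (chi-square per degree of freedom 2.79 to 5.64), so no library was counted as a duplicate.

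The mammary epithelium has an inner luminal layer, which secretes milk and contains the hormone-sensing cells, and an outer basal or myoepithelial layer, which contracts and sits on the basement membrane. Basal cells are known for the keratins KRT5, KRT14 and KRT17, the transcription factor TP63, the laminin-binding integrin chains ITGA6 and ITGB4 and P-cadherin. Luminal cells are known for the keratins KRT8, KRT18 and KRT19, EPCAM, GATA3, FOXA1 and, in the hormone-sensing subset, the estrogen receptor. Breast epithelial lines in culture can carry markers of both layers.

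Transcripts of translation, iron storage, metal binding and the actin cytoskeleton led the libraries. Of the 14803 genes, 12129 (81.9%) were at 1 TPM or more in every library, 8382 (56.6%) at 10 TPM or more, 1769 (12%) at 100 TPM or more and 123 (0.831%) at 1000 TPM or more, and 2305 (15.6%) were under 1 TPM in every library. Low genes had been removed before deposit by an unstated rule (lowest total over all 6 libraries 14 counts), so these are not shares of all human genes. The same holds for the listed genes called measured below, whose counts are to be read beside these shares. Listed genes that were not measured may be absent for other reasons, so absence was not read as a low level. The 10 most abundant genes held 7.59% ± 0.041 of all TPM, the first 100 held 30.9% ± 0.255 and the first 1000 held 63.1% ± 0.16. The 13 mitochondrially encoded protein genes listed were not measured, so TPM shares and ranks here are among the measured genes only. The 82 cytosolic ribosomal protein genes (close paralogs included) held 16.3% ± 0.151, and 50 of them stood among the 100 most abundant genes. Many ribosomal protein genes have processed pseudogenes, and since reads that mapped to several places were excluded before counting, their levels are uncertain.

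The highest measured gene was FTH1, the heavy chain of the iron-storage protein ferritin, at 11864, 11444 and 11405 TPM. ACTB, cytoplasmic beta-actin, followed at 11441, 11361 and 10936 TPM, and the libraries of this pair overlapped. MT2A, a metallothionein that binds zinc and other metals, stood at 8807 ± 191 TPM, and TMSB10, which encodes an actin-monomer-binding thymosin, at 7708 ± 143 TPM, each apart from its neighbours in every library. Among the 25 highest genes were 11 ribosomal protein genes, from RPL8 (6812 ± 34.7 TPM) to RPL4 (3816 ± 27.6 TPM, or 1904 TPM on its canonical length, that of 1 reference transcript in place of all annotated exons), together with the elongation factor gene EEF1A1 (5514 ± 212 TPM), the poly(A)-binding protein gene PABPC1 (4811 ± 18.8 TPM) and RACK1 (3886 ± 19.5 TPM), a component of the small ribosomal subunit. The membrane-binding annexin ANXA2 was at 5438 ± 97.8 TPM, the glycolytic enzyme GAPDH at 5167 ± 45.6 TPM, the second cytoplasmic actin ACTG1 at 4928 ± 93 TPM and the calcium-binding protein S100A6 at 4211 ± 65 TPM. On canonical lengths ACTB (11323 TPM) stood above FTH1 (11221 TPM), so the first place depended on the length used. On that basis GAPDH rose to 6794 TPM and S100A6 to 6290 TPM, while RPS6 fell from 6510 to 3742 TPM. KRT5 was the only keratin among these 25, at rank 22. The 2 mitochondrial ribosomal RNAs, the only mitochondrially encoded genes measured here, differed more between libraries than the rest of the 25: RNR1 was at 5934, 3508 and 3596 TPM and RNR2 at 6353, 4754 and 5413 TPM, with library 1 the highest for both.

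**Figure D1:**
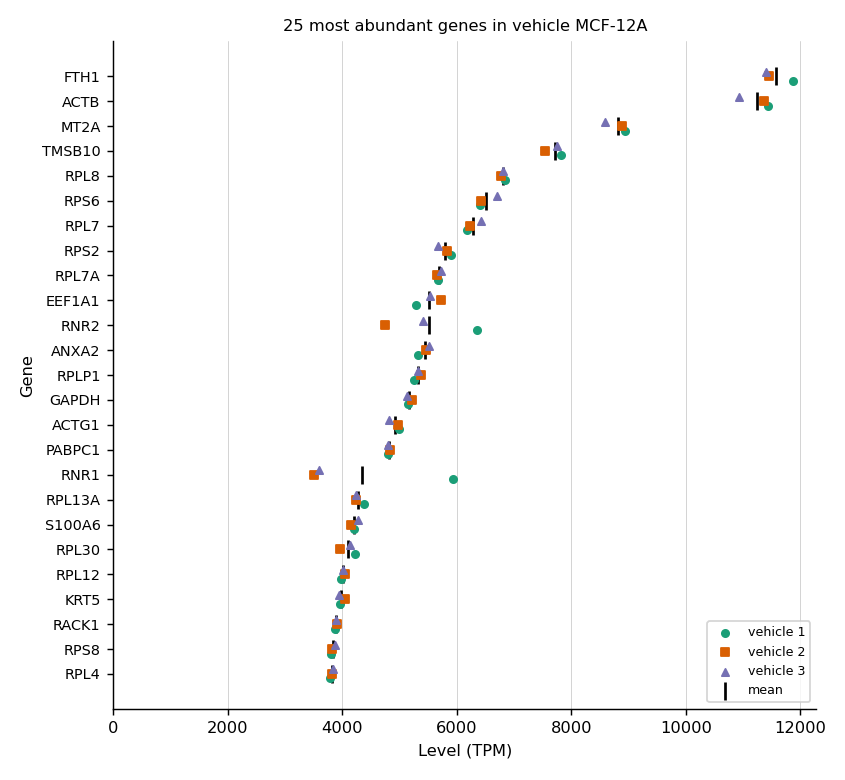
Levels in TPM (linear axis from 0) of the 25 most abundant genes of at least 300 bases in the 3 vehicle libraries, 1 symbol per library and a vertical tick at the mean. FTH1 and ACTB lie above the other genes in every library, and for RNR1 library 1 (5934 TPM) stands far from libraries 2 and 3 (3508 and 3596 TPM).

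The starts of these genes are shown because transcripts of the translation machinery are known for a 5′ terminal oligopyrimidine stretch, a C at the start followed by further C or T, through which their translation responds to growth signals. Each line gives 15 bases before and 15 bases from the start that RefSeq lists for the gene (GRCh38.p14), 5′ to 3′ on the gene's strand, with the pyrimidine run that begins at the start in capitals.
RPS6, chromosome 9, 19380222 to 19380251, minus strand: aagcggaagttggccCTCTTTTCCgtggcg
RPS12, chromosome 6, 132814554 to 132814583, plus strand: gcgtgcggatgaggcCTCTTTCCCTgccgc
RPL13A, chromosome 19, 49487593 to 49487622, plus strand: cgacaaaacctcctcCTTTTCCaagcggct
EEF1A1, chromosome 6, 73521018 to 73521047, minus strand: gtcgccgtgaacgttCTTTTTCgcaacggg
EEF2, chromosome 19, 3985449 to 3985478, minus strand: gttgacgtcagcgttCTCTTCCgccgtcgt
RACK1, chromosome 5, 181243892 to 181243921, minus strand: ggggggcttttctctCTCTCTTTCactgca
KRT5, chromosome 12, 52520380 to 52520409, minus strand: tcaccgttcctgggtaacagagccaccttc
S100A2, chromosome 1, 153565830 to 153565859, minus strand: cagtctccaggccccagagcaggggttgcc
The first 6 genes, all of the translation machinery, begin with runs of 7 to 10 pyrimidines, whereas KRT5 (rank 22) and the S100 gene S100A2 (rank 27) have none at the listed start and so carry no capitals.

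A C at the start followed by at least 4 pyrimidines (read on the gene's strand only) was found in 32 of the 72 matched genes among ranks 1 to 100 (44.4%). The share was 11.8% of 705 matched genes at ranks 101 to 1000, 4.92% of 3233 at ranks 1001 to 5000 and 4.01% of 1522 genes under 1 TPM in every library, beside 4.04% of all 27305 genes of the promoter table. Within the first 100 ranks it was 27 of 37 ribosomal protein genes (73%) and 5 of 35 other genes (14.3%). Those 5 included EEF1A1, EEF2 and RACK1, which also belong to the translation machinery. The sequence table lists 1 start per gene and is not complete. A match in these letters is a description of the listed start and not of the start used in these cells.

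The letters TATAAA between 45 and 16 bases before the start, searched on the gene's strand only, were found in 7 of the same 72 genes (9.72%), in 2.98%, 1.33% and 3.02% of the lower groups in that order, and in 2.63% of all genes. The windows below (with TATAAA in capitals) are those of the metallothionein MT2A, the annexin ANXA2 and AREG. AREG, at rank 122 and so outside the 72, is the most abundant growth factor gene of the ERBB family described further on. Windows were placed by the RefSeq start. The gene annotation used for counting begins MT2A at 56608533 and AREG at 74445098, both before the TATAAA letters shown.
MT2A, chromosome 16, 56608539 to 56608568, plus strand: cccggctctttctagcTATAAAcactgctt
ANXA2, chromosome 15, 60398002 to 60398031, minus strand: gaggatgtggcgggTATAAAagccccaccc
AREG, chromosome 4, 74445091 to 74445120, plus strand: ccctcccggctgagccTATAAAgcggcagg

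The 3 basal markers given beforehand for this line were all abundant in every library. Their levels describe a basal trait and do not identify the line. KRT5, the type II keratin of basal cells (chromosome 12, 52514575 to 52520459, hg38), was at 3952, 4053 and 3950.5 TPM. Its partner KRT14 (chromosome 17, 41582279 to 41586895) was at 658, 722 and 673 TPM, so that KRT5 exceeded KRT14 by 5.83-fold ± 0.199. ITGA6, a laminin-binding integrin chain (chromosome 2, 172427354 to 172506455), was at 531, 562 and 546 TPM. The 3 libraries lay close together for each of these genes.

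Of 20 basal mammary markers 19 were measured, and all 19 were at 1 TPM or more in every library, 13 of them at 100 TPM or more. Of all measured genes 81.9% and 12% reached these levels. The highest after KRT5 included the keratins KRT6A (3014 ± 74.6 TPM) and KRT17 (2232 ± 61.5 TPM) and the caveolar protein CAV1 (1211 ± 26.4 TPM). TP63, the transcription factor gene of basal epithelium, was at 29.9, 29.9 and 30 TPM. The contractile genes of myoepithelium stood at the low end of the list. ACTA2, smooth muscle actin, was at 12.6, 13.5 and 13.2 TPM, the myosin light chain kinase MYLK at 7.49 ± 0.474 TPM, TAGLN at 2.64 ± 0.184 TPM and the oxytocin receptor OXTR, through which milk ejection is triggered, at 1.68 ± 0.221 TPM. CNN1 was not analysed here.

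Luminal markers ranged from abundant keratins to a near-absent estrogen receptor. Of 26 listed, 17 were measured, 13 were at 1 TPM or more in every library and 4 were under 1 TPM. The shares over all measured genes were 81.9% and 15.6%. KRT7 was at 1589.8, 1607 and 1569.5 TPM, KRT18 at 552, 557 and 548 TPM and KRT8 at 282, 295 and 289.9 TPM, whereas KRT19 was at 0.233, 0.0706 and 0.163 TPM from 8, 2 and 4 counts. The secreted protease inhibitor SLPI (462 ± 7.74 TPM), the surface protein CD24 (188 ± 6.86 TPM) and the transcription factor XBP1 (156 ± 5.86 TPM) were also well expressed. EPCAM, the epithelial adhesion molecule, was at 37.1 ± 1.55 TPM. The luminal transcription factors GATA3 and FOXA1 were at 7.42 ± 0.522 and 2.36 ± 0.179 TPM.

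ESR1, the estrogen receptor alpha gene (chromosome 6, 151690496 to 152129603), was at 0.325, 0.384 and 0.309 TPM from 87, 85 and 59 counts. The progesterone receptor PGR, ELF5 and KIT were not analysed here. KRT5 and KRT14 together made up 84.7%, 84.9% and 84.7% of the summed TPM of KRT5, KRT14, KRT8 and KRT18 (84.7% ± 0.111). This share depends on the keratins chosen. KRT7, the highest luminal marker measured (mean 1589 TPM), is not part of it, and the share would be lower with KRT7 included. Reads of these keratins that mapped to several places were excluded before counting, and the effect of this on the share was not tested.

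**Figure D2:**
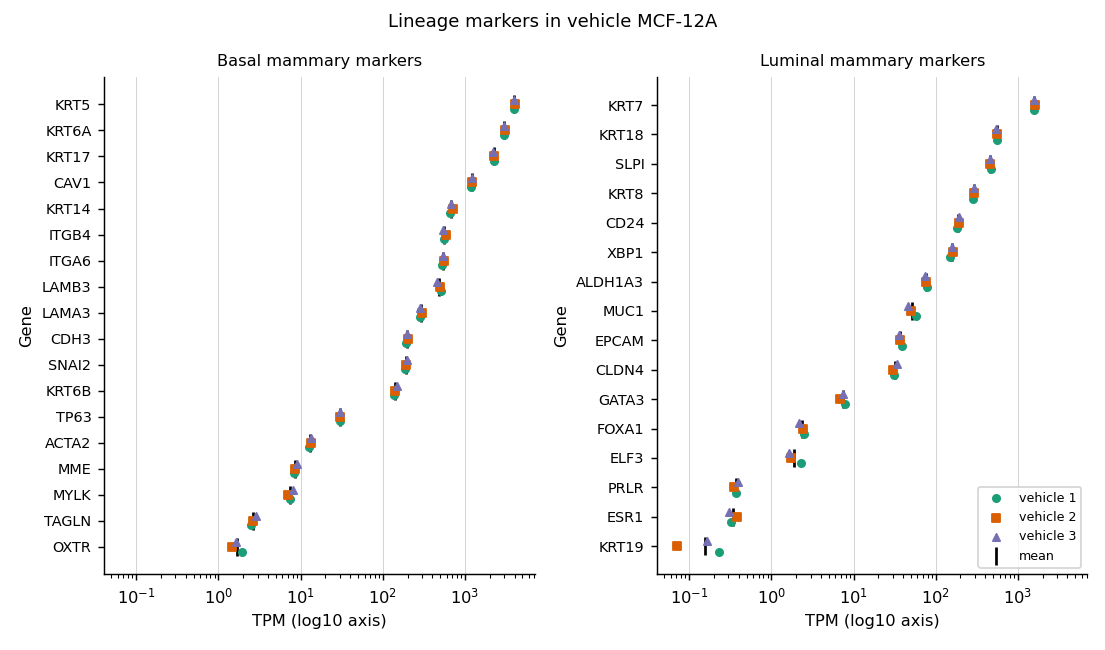
Levels in TPM (log10 axis) of basal (left) and luminal (right) mammary markers in the 3 vehicle libraries, with a tick at the mean. All basal markers drawn lie above 1 TPM, whereas PRLR, ESR1 and KRT19 at the foot of the luminal panel lie below 1 TPM in every library.

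Of 26 listed keratins 19 were measured, and KRT5 made up 28% ± 0.121 of their summed TPM. KRT81, a keratin known from hair shafts, came next after KRT7 at 1434, 1433 and 1427 TPM, while its neighbour on chromosome 12, KRT86, was at 1.53, 0.693 and 1.58 TPM. KRT16, a keratin of stressed or proliferating epidermis, was at 218 ± 10.6 TPM and KRT6B at 142 ± 6.35 TPM. KRT6A, KRT6B and KRT6C are near-identical copies, as are parts of KRT14, KRT16 and KRT17 and of KRT81 and KRT86, so reads shared within these sets were lost or could be misplaced and the levels within them are uncertain.

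Mesenchymal markers split into a few high genes and many low ones. VIM, the intermediate filament vimentin, was at 2336, 2417 and 2399 TPM and FN1, fibronectin, at 1375, 1291 and 1298 TPM. The remaining members were lower. S100A4 was at 74.3 ± 1.65 TPM, the transcription factor TWIST1 at 70.9 ± 2.54 TPM, the protease FAP at 43.6 ± 2.13 TPM and the proteoglycan DCN at 23 ± 3.38 TPM, or 14.9 TPM on its canonical length. ZEB1 was at 8.14 ± 0.213 TPM and COL1A1 at 8.12 ± 0.312 TPM, and PDGFRA and PDGFRB, receptors of fibroblasts, were under 1 TPM in every library. Of 19 listed markers 15 were measured, and 11 were at 1 TPM or more in every library.

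The classical cadherins, which join neighbouring cells, were led by P-cadherin. CDH3 was at 193, 202 and 194 TPM, E-cadherin CDH1 at 64.8, 63.1 and 62.4 TPM and N-cadherin CDH2 at 8.3, 9.11 and 8.42 TPM. CDH3 exceeded CDH1 by 3.1-fold ± 0.113 and CDH1 exceeded CDH2 by 7.38-fold ± 0.439. CDH11, a cadherin of mesenchymal cells, lay between CDH1 and CDH2 at 36.4 ± 0.956 TPM, and CDH4, some of whose exons are also annotated on another contig, was lowest at 4.25 ± 0.412 TPM and at 7.36 TPM on its canonical length.

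Genes of epidermal differentiation were present at very different levels. SFN, the stratifin gene of stratified epithelium, was at 1196 ± 16.2 TPM, the calprotectin subunits S100A9 and S100A8 at 338 ± 16.5 and 152 ± 17 TPM, and the cornified envelope genes SPRR1B and SPRR1A at 167 ± 14.2 and 60.5 ± 9.88 TPM. KRT10, a keratin of cells that have left the basal layer, was at 29 ± 2.56 TPM. Of 24 listed, 17 were measured and 8 were at 10 TPM or more in every library, while CDSN, DSG1 and the filaggrin gene FLG, which act late in cornification, were under 1 TPM in every library. Some exons of CDSN are also annotated on other contigs, and on its canonical length it was at 2.01 TPM, above 1 TPM, from 101, 115 and 99 counts. On the same basis S100A8 was at 257 TPM. XDH, the only one of 7 milk protein and milk fat genes measured, was at 84 ± 2.95 TPM.

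Most measured markers of other cell types were low. The endothelial gene PECAM1 was at 1.78, 1.81 and 2.08 TPM, and 3 of 5 measured endothelial markers were under 1 TPM in every library. The adipocyte genes FABP4 and PLIN1 were at 3.52 ± 0.172 and 0.0116 ± 0.0104 TPM. Of 11 leukocyte markers 3 were measured, with CD68, a lysosomal glycoprotein gene that many cells express, at 26.5 ± 0.822 TPM, CD14 at 3.49 ± 0.419 TPM and CD8A at 0.0633 ± 0.0123 TPM. PTPRC and ADIPOQ were not analysed here. The summed TPM of 15 measured hepatocyte markers was 3.54, 9.12 and 6.31, with albumin, ALB, at 0.239, 2.45 and 1.54 TPM from 13, 110 and 60 counts. Among neuronal markers TUBB3, a tubulin also made outside neurons, was at 418 ± 13.7 TPM, the neurofilament genes NEFL and NEFM were at 36 ± 1.2 and 4.68 ± 0.0984 TPM, and 6 of 9 were under 1 TPM in every library.

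The cells carried transcripts of both cell division and its brakes. All 12 measured proliferation genes were at 10 TPM or more and 11 at 100 TPM or more in every library. CDKN1A, the p21 inhibitor of cyclin-dependent kinases, was the highest at 529 ± 14.6 TPM, ahead of the mitotic cyclin CCNB1 (416 ± 16.4 TPM), the topoisomerase TOP2A (368 ± 15.2 TPM), the replication clamp PCNA (332 ± 5.74 TPM), CCND1 (242 ± 4.31 TPM) and CDK4 (185 ± 1.01 TPM). The highest of the epithelial transcription factors reported here were MYC (225 ± 5.44 TPM), SNAI2 (189.8 ± 5.57 TPM), KLF5 (100.5 ± 2.68 TPM), the Hippo pathway coactivator YAP1 (92.7 ± 2.92 TPM) and TFAP2A (76.3 ± 0.573 TPM).

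Adhesion to laminins, the sheet-forming proteins of the basement membrane, was represented on both the ligand and the receptor side. LAMB3 was at 508, 494 and 462 TPM and LAMA3 at 283, 297 and 284 TPM, and the 3 libraries of LAMB3 stood above those of LAMA3. LAMB1 (269.9 ± 4.34 TPM), LAMC1 (173 ± 1.78 TPM) and LAMA5 (86.6 ± 4.4 TPM), which encode the chains of another epithelial laminin, were also expressed, and 5 laminin genes were under 1 TPM in every library. Among 18 measured integrins the laminin receptors ITGA3 (565 ± 14.8 TPM), ITGB4 (562 ± 22.2 TPM) and ITGA6 (546 ± 15.1 TPM) stood highest and their libraries overlapped. ITGB1, the common beta chain, was at 398 ± 10.6 TPM, and ITGB5 and the fibronectin receptor chain ITGA5 were at 93.6 ± 2.19 and 93.5 ± 2.07 TPM, again overlapping.

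The ERBB receptors bind epidermal growth factor and its relatives, and EGFR carried most of the family's transcripts. EGFR (chromosome 7, 55019021 to 55208080) was at 176, 178 and 173 TPM. ERBB2, the receptor with no known ligand, was at 24.7, 24.3 and 23.8 TPM, and ERBB3, which signals through its partners, at 2.32, 2.23 and 2.22 TPM. EGFR made up 86.7%, 87% and 86.9% of the summed TPM of the 3 (86.9% ± 0.152) and exceeded ERBB2 by 7.24-fold ± 0.0901. ERBB4 was not analysed here. On the length of 1 canonical transcript per gene, in place of all annotated exons, the EGFR share was 81.5%.

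Among the ligands AREG, amphiregulin, which binds EGFR (chromosome 4, 74445098 to 74455009), was at 1050.2, 1039 and 1029.6 TPM and held 87.4% ± 0.133 of the TPM of 8 measured ligand genes. EREG, epiregulin, was next at 53.1, 51.2 and 54.5 TPM, 19.7-fold ± 0.701 lower than AREG. TGFA was at 45.2, 47.9 and 45.3 TPM, EPGN at 33.6 ± 0.571 TPM and HBEGF at 12 ± 0.329 TPM, whereas the neuregulins NRG1 and NRG2, ligands of ERBB3 and ERBB4, were at 4.08 ± 0.232 and 1.27 ± 0.0361 TPM. EREG lay above TGFA in every library, but with canonical transcript lengths the order of this pair turned (50.4 and 50.7 TPM). BTC was at 0.152, 0.295 and 0.277 TPM.

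The other measured receptor tyrosine kinases were led by EPHA2, an ephrin receptor, at 232 ± 6.87 TPM, AXL, the receptor of GAS6, at 134 ± 3.84 TPM, and EPHB4 at 115 ± 3.87 TPM. RYK (90.6 ± 3.03 TPM), a WNT co-receptor, and MET (88.1 ± 1.75 TPM), the hepatocyte growth factor receptor, overlapped, and PTK7 followed at 54 ± 1.54 TPM. Of 28 measured, 17 were at 1 TPM or more and 9 under 1 TPM in every library. IGF1R was at 33.7 ± 0.827 TPM and the insulin receptor INSR at 3.46 ± 0.156 TPM.

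TGFBR2, the ligand-binding receptor of TGF-beta, was the only one of 31 cytokine and TGF-beta receptors at 100 TPM or more in every library, at 261, 265 and 259 TPM. It was followed by the death receptor TNFRSF10B (99.4 ± 0.617 TPM), the tumor necrosis factor receptor TNFRSF1A (91.9 ± 4.14 TPM), IFNGR1 (81.3 ± 2.37 TPM), the oncostatin M receptor OSMR (73.2 ± 0.406 TPM) and IL4R (60.3 ± 0.847 TPM). TGFBR1, its signalling partner, was at 39.3 ± 1.11 TPM. The prolactin receptor PRLR, the growth hormone receptor GHR and the neurotrophin receptor NGFR were among the 5 genes under 1 TPM in every library, at 0.37 ± 0.0202, 0.201 ± 0.0163 and 0.144 ± 0.0623 TPM.

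Of the Notch receptors, which regulate fate choices between basal and luminal progenitors, NOTCH1 was highest at 117, 111 and 107 TPM, above NOTCH2 (45.6, 45.3 and 44 TPM) and NOTCH3 (6.81, 6.37 and 7.07 TPM) in every library. The ligands JAG1 and JAG2 were at 46.9 ± 1.24 and 41.1 ± 1.47 TPM, DLL3 at 3.92 ± 0.204 TPM and DLL4 at 0.0722 ± 0.0299 TPM. The protease-activated receptors F2R (55.4 ± 1.86 TPM) and F2RL1 (38.7 ± 2.83 TPM) led the G protein receptors of hormones and lipids, ahead of the lysophosphatidic acid receptors LPAR3 (22.6 ± 1.54 TPM) and LPAR2 (16.5 ± 1.19 TPM) and the sphingosine phosphate receptor S1PR3 (19.6 ± 0.335 TPM). LPAR3 was at 10.5 TPM on its canonical length, below LPAR2 and S1PR3.

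Nuclear receptors are transcription factors switched by hormones, vitamins and lipids. The common partner RXRA was the highest of 23 measured at 86.7, 85.2 and 81.7 TPM. The estrogen-related receptor ESRRA (63.3 ± 0.522 TPM), the vitamin D receptor VDR (62.5 ± 1.52 TPM) and the oxysterol receptor NR1H2 (57.1 ± 4.19 TPM) followed, each overlapping its neighbour, then the glucocorticoid receptor NR3C1 (43.6 ± 0.915 TPM) and the retinoic acid receptor RARG (29.5 ± 0.538 TPM). No nuclear receptor reached 100 TPM, 15 were at 1 TPM or more and 8 under 1 TPM in every library. ESR2, the second estrogen receptor, was at 0.17 ± 0.0334 TPM.

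The fatty acid-responsive PPAR receptors bind DNA together with an RXR partner such as RXRA. PPARD was at 17.3, 18 and 15.7 TPM, PPARG at 6.51, 6.41 and 6.06 TPM and PPARA at 2.83, 2.91 and 3.16 TPM. The order of the first pair depended on the length used, since with canonical transcript lengths PPARG was at 23 TPM and PPARD at 19.3 TPM.

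**Figure D3:**
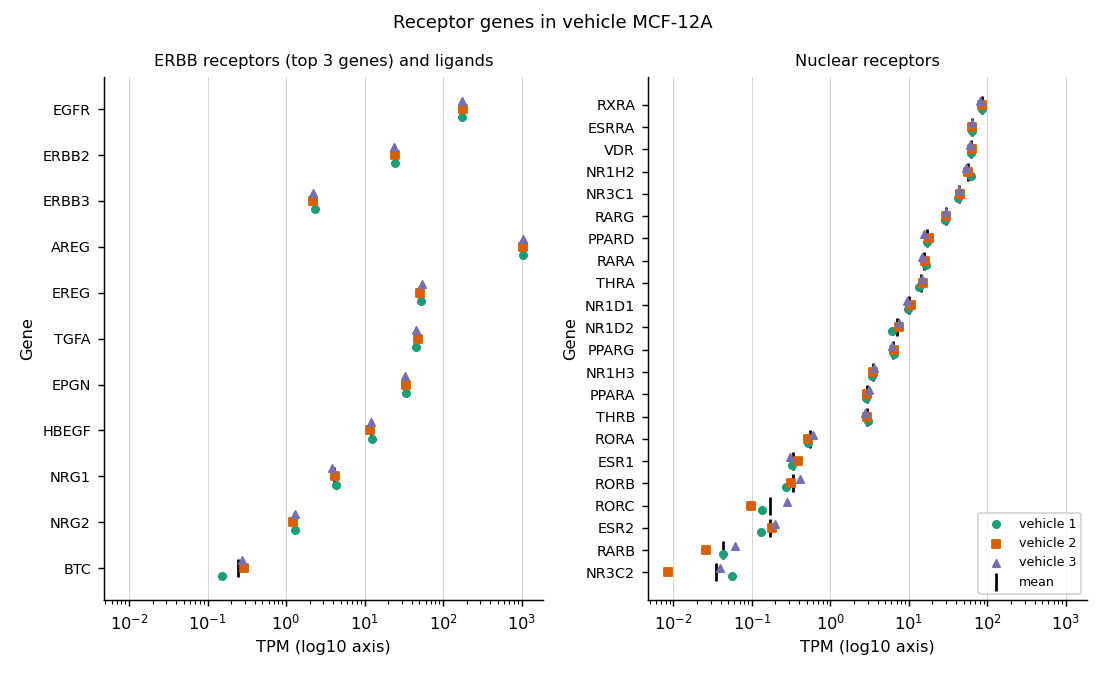
Levels in TPM (log10 axis) of the ERBB receptor and ligand genes (left) and of nuclear receptor genes (right) in the 3 vehicle libraries, with a tick at the mean. EGFR and AREG are the highest receptor and ligand gene of the left panel, and in the right panel RORA and the receptors below it, among them ESR1 and ESR2, lie under 1 TPM.

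Lipid uptake was represented by binding protein and lipoprotein receptor genes. FABP5, the epidermal fatty acid-binding protein, was at 555, 547 and 573 TPM. The high-density lipoprotein receptor SCARB1 was at 208, 207 and 196 TPM. The fatty acid transport protein SLC27A4 was at 71.7 ± 1.32 TPM, LRP8 at 39.3 ± 0.761 TPM and the Wnt co-receptor LRP5 at 32.9 ± 1.71 TPM. CD36 was not analysed here, and 14 of 16 measured genes of the list were at 1 TPM or more in every library.

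Acyl-CoA synthetases activate fatty acids for every later step. ACSL3, of the endoplasmic reticulum and lipid droplets, was at 95, 101 and 101 TPM, ACSL4, which prefers arachidonic acid, at 60.8, 60.7 and 64.6 TPM and ACSL1 at 45.1, 46.5 and 47.3 TPM. ACSL3 exceeded ACSL4 by 1.59-fold ± 0.0556, and ACSL5 and ACSL6 were at 0.933 ± 0.0397 and 0.589 ± 0.0165 TPM. Of 12 genes listed for medium- and short-chain fatty acids 5 were measured. ACSS2, the cytosolic acetyl-CoA synthetase, was at 61.8, 64.1 and 64.8 TPM, ACSF3, which activates malonate, at 15.7 ± 0.023 TPM and ACSF2 at 6.83 ± 0.113 TPM. ACSM3, the one measured member of the mitochondrial medium-chain ACSM family, was at 0.881, 0.997 and 0.656 TPM from 47, 44 and 25 counts, and ACSS3 was at 0, 1 and 0 counts.

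The carnitine shuttle carries long-chain acyl groups into mitochondria. CPT1A, its entry enzyme, was at 34.2, 33.1 and 32.7 TPM, CPT2, on the inner membrane, at 35.1, 36.2 and 34.5 TPM, and CPT1C, the form known from brain, at 2.49, 2.85 and 3.03 TPM. The carnitine importer SLC22A5 (27.9 ± 0.989 TPM) and the short-chain enzyme CRAT (27.8 ± 1.3 TPM) overlapped, and the acylcarnitine carrier SLC25A20 and the peroxisomal enzyme CROT, which takes medium chains, were at 17.1 ± 1.18 and 14.5 ± 0.631 TPM. All 7 measured genes of the shuttle were at 1 TPM or more in every library and none at 100 TPM or more.

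In beta-oxidation the very-long-chain dehydrogenase ACADVL was at 196, 194 and 194 TPM, the medium-chain enzyme ACADM at 39.3, 41.1 and 42.5 TPM and the short-chain enzyme ACADS at 9.63, 9.82 and 9.99 TPM. ACAD9, which also assembles respiratory complex I, was at 54.5 ± 0.557 TPM, ACAD10 at 13.2 ± 0.198 TPM and ACADSB, of branched short chains, at 11.9 ± 0.242 TPM. The trifunctional protein subunits HADHA and HADHB stood higher, at 334 ± 9.09 and 203 ± 3.22 TPM, with ECHS1 between them at 241 ± 3.81 TPM. ECI2 (91.1 ± 0.655 TPM), DECR1 (89.1 ± 0.961 TPM) and the peroxisomal thiolase ACAA1 (86.2 ± 2.54 TPM) were next. All 11 measured genes of these later steps were at 10 TPM or more in every library.

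Of 10 fatty acid synthesis and desaturation genes, 4 were at 100 TPM or more in every library, with a median of 87.9 TPM over the list. SCD, which desaturates stearate, was at 1282, 1330.2 and 1298 TPM and exceeded its paralog SCD5 by 145-fold ± 1.02. ACLY, which makes cytosolic acetyl-CoA from citrate, was at 552, 561 and 559.5 TPM and fatty acid synthase FASN at 576, 553 and 525 TPM, with overlapping libraries. The desaturases FADS1 and FADS2 were at 155 ± 1.03 and 91.3 ± 1.52 TPM and the sterol-responsive factor SREBF2 at 84.4 ± 2.36 TPM, overlapping SREBF1 (83.5 ± 2.96 TPM).

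The acetyl-CoA carboxylases, which make malonyl-CoA, read low. ACACB was at 1.66, 1.37 and 1.5 TPM and ACACA at 0.562, 0.6 and 0.538 TPM from 298, 263 and 204 counts. The file places exons of ACACA both on chromosome 17 and on an alternate copy of that region, and reads that mapped to both were excluded, so its level and the order of the pair are uncertain. With its canonical transcript length ACACA was at 1.22 TPM.

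Of 7 elongase genes ELOVL1 (164, 169.5 and 159.6 TPM) and ELOVL5 (147, 156 and 157 TPM) were highest, and their order turned with canonical transcript lengths (189.9 and 208 TPM). ELOVL6, which extends palmitate, was at 59.1 ± 1.71 TPM, a value that fell to 29 TPM on its canonical length, ELOVL3 was at 4.97 ± 0.753 TPM, ELOVL7 at 1.92 ± 0.148 TPM and ELOVL4 at 1.5 ± 0.184 TPM. The measured genes of triacylglycerol synthesis were led by AGPAT2 (86.8 ± 0.844 TPM), GPAM (48 ± 0.696 TPM) and GPAT4 (31.3 ± 0.173 TPM), acyltransferases of the early steps, ahead of the phosphatidate phosphatases LPIN1 (27.9 ± 0.991 TPM) and LPIN3 (23 ± 0.621 TPM) and of AGPAT3 (23.3 ± 0.435 TPM).

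Perilipins coat lipid droplets, and PLIN3, which also occurs free in the cytosol, was the highest at 198, 194 and 191 TPM. PLIN2, the droplet-bound form of most tissues, was at 40.6, 41.5 and 43.1 TPM, so that PLIN3 exceeded it by 4.65-fold ± 0.23. PLIN4 was at 3.73 ± 0.249 TPM and PLIN1, the adipocyte form, at 1, 0 and 1 counts.

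Glycolysis genes were high from the glucose carrier to lactate export. SLC2A1, the GLUT1 carrier, was at 184, 183 and 178 TPM and exceeded SLC2A3 by 37.3-fold ± 1.03, with SLC2A6 (31.4 ± 3.29 TPM), SLC2A8 (13.9 ± 0.0712 TPM) and SLC2A13 (1.74 ± 0.103 TPM) the other members at 1 TPM or more in every library. Of the hexokinases HK1 was at 268, 272 and 264 TPM, HK2 at 41.8, 42.7 and 41 TPM and HKDC1 at 1.67 ± 0.272 TPM, and HK1 exceeded HK2 by 6.41-fold ± 0.0322.

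The phosphofructokinases stood in the order PFKP (176, 175 and 173 TPM), PFKL (110.1, 112 and 105 TPM) and PFKM (48.6, 49.3 and 48.1 TPM) in every library. PFKFB3, which makes the activator of that step, was at 34.8 ± 0.263 TPM, above PFKFB2 (12.3 ± 0.666 TPM) and PFKFB4 (11.8 ± 0.275 TPM), which overlapped. ALDOA held 96.2% ± 0.121 of aldolase TPM at 1206 ± 15.2 TPM, ahead of ALDOC (47 ± 0.997 TPM). ENO1 held 99.8% ± 0.0111 of enolase TPM at 2698 ± 26.8 TPM, ahead of ENO2 (2.56 ± 0.445 TPM) and ENO3 (1.71 ± 0.158 TPM).

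GAPDH, TPI1 (760 ± 9.66 TPM), PGK1 (574 ± 6.06 TPM), PGAM1 (325 ± 4.19 TPM) and GPI (237 ± 3.35 TPM, exons also on another contig) made up the rest of the pathway. Gene lengths moved some of these levels, since with canonical transcripts ALDOA was at 2421 TPM, ENO1 at 4542 TPM, PFKM at 76.9 TPM and PGK1 at 274 TPM, below GPI at 308 TPM. The pyruvate kinase PKM was at 2563, 2627 and 2574 TPM. Its M1 and M2 splice forms are not separated in counts per gene.

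Lactate dehydrogenase interconverts pyruvate and lactate, and both common subunits were abundant. LDHA (chromosome 11, 18394389 to 18408218) was at 1619.9, 1651 and 1659.5 TPM and LDHB (chromosome 12, 21635342 to 21657855) at 969.5, 977 and 1019 TPM. LDHA made up 62.6%, 62.8% and 61.9% of the pair (62.4% ± 0.449). LDHD was at 0.501 ± 0.0431 TPM and the testis form LDHC at 1, 3 and 4 counts. Of the monocarboxylate transporters that carry lactate, SLC16A3, known for lactate export, was at 485, 477 and 447 TPM, SLC16A1 at 127, 128 and 132 TPM and SLC16A7 at 5.32, 5.3 and 5.29 TPM, and SLC16A3 exceeded SLC16A1 by 3.65-fold ± 0.225.

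The pyruvate dehydrogenase complex links glycolysis to the mitochondria. Its subunit genes DLD (123 ± 4.08 TPM) and PDHB (117 ± 3.24 TPM) overlapped and stood above PDHA1 (79.9 ± 0.944 TPM), DLAT (73.9 ± 2.73 TPM) and PDHX (30.4 ± 0.721 TPM). The kinases that inhibit it were lower, with PDK1 at 16.7, 16.6 and 18.4 TPM, PDK2 at 9.14, 9.01 and 9.44 TPM, PDK3 at 1.68, 2.03 and 1.87 TPM and PDK4, known for induction by fatty acids and fasting, at 0.615, 0.715 and 1.09 TPM. The order of the first 3 kinases was reversed with canonical transcript lengths, on which PDK3 was at 13.3 TPM, PDK2 at 8.8 TPM and PDK1 at 6.78 TPM.

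Mitochondrial and amino acid genes were broadly expressed, and single isoforms led several families. IDH1, the cytosolic isocitrate dehydrogenase, was at 119.6 ± 6.44 TPM, IDH2 at 102 ± 1.94 TPM, and the subunits IDH3B (96.1 ± 2.12 TPM) and IDH3A (93.5 ± 3.81 TPM) overlapped above IDH3G (49.4 ± 0.333 TPM). With canonical lengths IDH2 was at 67.7 TPM, below IDH3B at 109.5 TPM, and IDH3A at 57.9 TPM, below IDH3G at 60.5 TPM. Of 18 other TCA cycle genes 17 were at 1 TPM or more in every library, led by MDH2 (423 ± 4.4 TPM), SDHB (251 ± 4.44 TPM), MDH1 (244 ± 7.06 TPM), citrate synthase CS (243 ± 1.92 TPM), FH (227 ± 3.4 TPM) and OGDH (178 ± 2.38 TPM), and the gluconeogenic enzyme PCK1 was at 0.0716 ± 0.0427 TPM. SDHC, at 139.5 TPM, was at 292 TPM on its canonical length. That was above SDHB (270 TPM), CS (235 TPM), FH (224 TPM) and OGDH (195 TPM) and below MDH1 (336 TPM) on the same basis.

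SLC25A5 held 98.3% ± 0.152 of the TPM of 2 measured adenine nucleotide carriers at 631 ± 12.8 TPM, the other being SLC25A4 of heart and muscle at 11 ± 0.999 TPM. SLC25A6 and SLC25A31 were not analysed here, so the share of SLC25A5 in the whole family is not known. COX4I1 led the cytochrome c oxidase genes at 663 ± 12.4 TPM, ahead of COX6B1 (544 ± 18.8 TPM), COX8A (450.4 ± 6.05 TPM), COX6A1 (415 ± 14.4 TPM) and COX7A2 (344 ± 15.2 TPM), with the testis form COX6B2 at 6.43 ± 0.639 TPM. On canonical lengths COX7A2 was at 534 TPM, above COX8A (439 TPM) and COX6A1 (419.9 TPM). CKB, the brain-type creatine kinase, held 90.8% ± 0.0152 of creatine kinase TPM at 235 ± 5.18 TPM. CKMT1A and CKMT1B, which are near-identical copies, were at 12.5 ± 0.143 and 11.2 ± 0.618 TPM, and at 18.2 and 22.1 TPM on canonical lengths.

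Of the methionine and folate enzymes AHCY, which clears S-adenosylhomocysteine, was highest at 501 ± 7.77 TPM, followed by the mitochondrial folate enzyme MTHFD2 (384 ± 7.73 TPM) and MAT2A (352, 335 and 344 TPM), which makes S-adenosylmethionine, the methyl donor of histone and DNA methylation. The liver form MAT1A was at 0.0252, 0.0457 and 0.0353 TPM from 2, 3 and 2 counts. On canonical lengths AHCY was at 863 TPM and MTHFD2 at 189 TPM, which placed MTHFD2 below MAT2A. TYMS (248 ± 2.09 TPM), MTHFD1 (230.3 ± 2.91 TPM) and the nicotinamide methyltransferase NNMT (216 ± 1.21 TPM) came next. SHMT2 followed at 212 TPM. With canonical lengths SHMT2 was at 267 TPM, above TYMS (245 TPM), MTHFD1 (239 TPM) and NNMT (161 TPM).

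HMGCS1, the cytosolic enzyme of sterol synthesis, was at 123, 120.2 and 133 TPM. Genes that use ketone bodies were expressed, with OXCT1 at 59.5 ± 2.39 TPM and ACAT1 at 84.7 ± 2.92 TPM. ACAT2, of sterol synthesis, was at 215 ± 4.93 TPM and BDH2 at 5.19 ± 0.611 TPM.

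**Figure D4:**
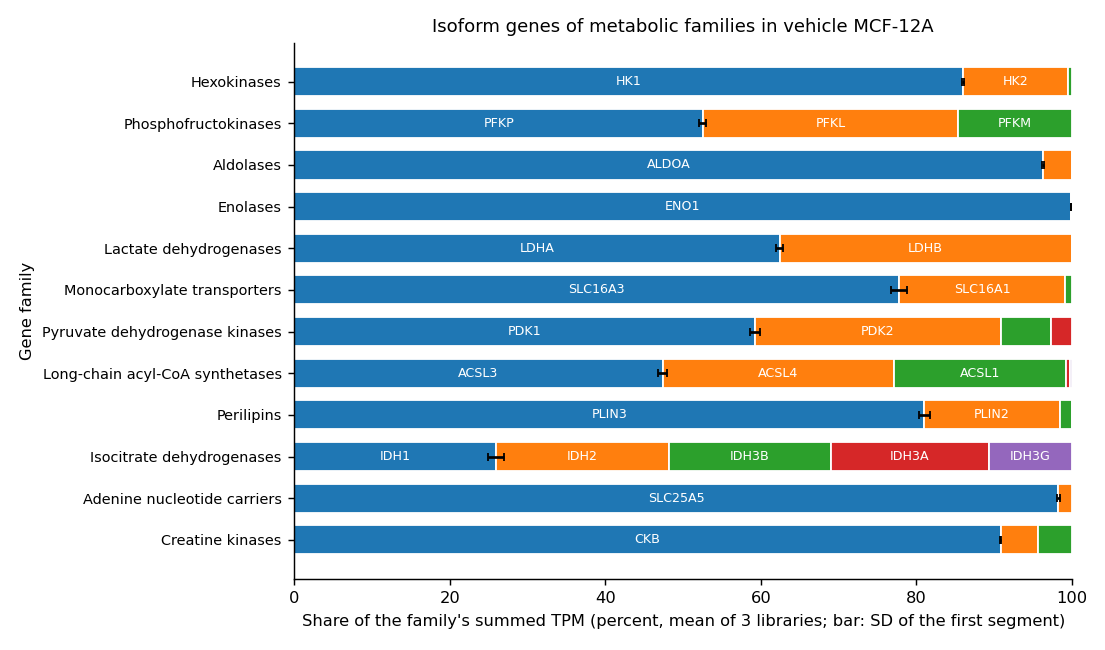
Share of each gene in the summed TPM of the measured genes of its family (percent, mean of the 3 vehicle libraries), with the SD of the leading gene as a bar and the larger segments named. The leading genes HK1, ALDOA, ENO1, SLC16A3, PLIN3, SLC25A5 and CKB hold from 77.8% (SLC16A3) to 99.8% (ENO1) of the measured genes of their family, whereas the isocitrate dehydrogenase genes are more evenly spread. Family members that were not measured are left out.

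The libraries agreed closely at high counts. Across genes, which are not independent replicates, Pearson's r of log2(TPM + 1) was 0.999 for each of the 3 pairs of libraries. The median coefficient of variation (CV, the SD over the mean) was 50.1% for 676 genes with a mean of 1 to 10 counts, 17% for 2525 genes with 10 to 100, 5.73% for 4070 genes with 100 to 1000, 2.78% for 6467 genes with 1000 to 10000 and 1.95% for 985 genes above that. The median CV that counting error alone gives was 46.3%, 16.4%, 4.93%, 1.92% and 0.77% in the same groups. The measured median was close to that of counting error under 1000 counts and above it at higher counts, and differences between neighbours among genes of few counts, such as KRT19 and KRT75, were not detectable at this depth.

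The 10 genes with the largest CV among those at 10 TPM or more held several short or non-coding genes. RN7SK, the non-coding RNA that restrains transcription elongation, was at 82, 46.7 and 33.1 TPM (CV 46.7%), the ribosomal protein pseudogene RPL23P8 at 13.7, 7.24 and 9.42 TPM (CV 32.5%) and RNR1 at the values above (CV 31.7%). Library 1 was the highest for each of these 3 genes. The chemokine CCL20 was at 16.5, 10.3 and 14 TPM, the annexin pseudogene ANXA2P2 at 30.4, 20.4 and 24.5 TPM, the antimicrobial protein S100A7 at 12.2, 8.51 and 10.5 TPM and WFDC2, a secreted protein of epithelia, at 14.9, 10.5 and 14.2 TPM, again with library 1 the highest. COPZ2 (9.25, 9.28 and 13.6 TPM) was highest in library 3, the cornified envelope gene SPRR2E (8.26, 12 and 12.5 TPM) in library 3 and ABHD14A (12.7, 14.9 and 10.5 TPM) in library 2. Library 1 was also the deepest, and the part of depth in these values was not tested.

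**Figure D5:**
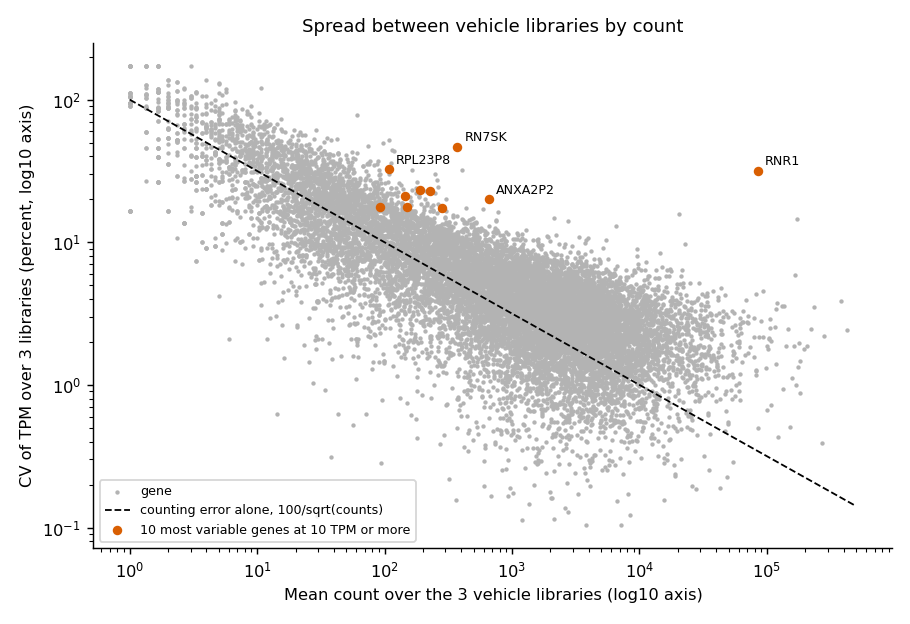
CV of TPM over the 3 vehicle libraries (percent, log10 axis) against the mean count (log10 axis), 1 grey point per gene, for genes with a mean of at least 1 count. The dashed line is the CV from counting error alone. Most genes follow the line up to about 1000 counts and lie above it beyond, and the 10 most variable genes at 10 TPM or more (orange) include RNR1 at a CV of 31.7%.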

How the data were processed

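RNA of MCF-12A cells was sequenced in 6 libraries, and the 3 vehicle libraries named by the sample labels were used. The authors aligned reads to the hg38 build using STAR 2.5, left out reads of low quality and reads that mapped to several places, and deposited raw counts for each gene from featureCounts 1.5.1, together with its length (the union of its exons). Sources differ on read length and on single or paired reads. Since no strand setting is stated in them, genes that overlap or lie antisense to each other may share reads. The lowest gene total over the 6 libraries was 14 counts, so low genes had been removed by an unstated rule. For 197 genes some exons lie on other contigs, and 31 genes had 0 counts in all 3 libraries.

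TPM was computed in Python 3.11.15 with pandas 2.3.3 and checked on simulated data. Depth was 43049972 to 59935521 counts per library, and precision from depth covers counting error only. The text names the 25 most abundant genes of at least 300 bases, all members of lists with up to 6 entries, the 6 highest members of longer lists with their defining members near 0, and the 10 genes with the largest CV at a mean of at least 10 TPM. Further genes were named after their values were seen, among them KRT19, TAGLN, OXTR, KRT81 and ACSM3. Some genes taken by this rule are not reported here. The members and the 56 lists (654 entries, 515 measured) were chosen with earlier results of these data known. Start sites were taken from RefSeq (GRCh38.p14) by symbol. Alternatives were TPM without mitochondrial genes or genes under 300 bases, an effective length (length minus 200 bases, at least 100), CPM, a minimum of 10 counts, thresholds of 0.5 and 2 TPM, 1 TPM in the mean, omission of each library in turn and, added after the data were seen, the length of the canonical GENCODE transcript.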

Additional observations from a re-analysis of the deposited data

How the results depend on the processing

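The count of 12129 genes at 1 TPM or more in every library kept within 1.5 times itself, from 11248 at 2 TPM to 12899 at 0.5 TPM. The share of the 10 most abundant genes was 7.67% without mitochondrial genes, 8.81% with effective lengths, 5.05% with CPM, 7.68% with canonical transcript lengths, and 7.57% to 7.64% when each library was left out in turn. The share of KRT5 and KRT14 in their sum with KRT8 and KRT18 was 84.4% with effective lengths, 87.3% with CPM and 83.2% with canonical lengths. The LDHA share was 61.2%, 72.6% and 60.7% in the same order, and the EGFR share was 90.4% with CPM and 81.5% with canonical lengths. Lengths act in these alternatives by construction, since CPM drops them and longer genes then weigh more. Of 292 named genes, canonical lengths moved 198 beyond 1 SD and 28 by more than 1.5 times, and CPM moved 276 and 176. Of 459 pairs of neighbours, 103 overlapped, and among the 356 that did not, CPM turned the order of 87, canonical lengths of 47 and effective lengths of 4. Pairs turned by canonical lengths included YAP1 and TFAP2A, TOP2A and PCNA, IFNGR1 and OSMR, NR1H2 and NR3C1, SLC25A20 and CROT, ECI2 and DECR1, and GPAT4 and LPIN1. Leaving out a library cannot turn a pair that does not overlap, so that alternative did not test these orders. Levels of genes under 10 counts rest on a few reads. No paired analysis was possible because the results come from 1 group and from no test.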
